A study of Mus musculus with 4 samples.

Results

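The 9 genes described here, of 31053 in the deposited matrix, were chosen by symbol: the neuronal pentraxins Nptx1, Nptx2 and their receptor Nptxr, the C1q-like ligands C1ql1, C1ql2 and C1ql3, and the adhesion G protein-coupled receptors Adgrb1, Adgrb2 and Adgrb3. All 9 were found. Nuclear RNA of the superior colliculus, a midbrain centre that receives retinal input, had been sequenced nucleus by nucleus in C57BL/6J mice before birth (E19, embryonic day 19) and on days 4, 8 and 21 after it (P4, P8 and P21). The protocol abbreviates the embryonic stage once as E10 while spelling out day 19, and the title and the deposited stage column give E19, which is used here. No genotype or treatment other than age was given. Each stage was 1 library of tissue pooled from an unstated number of animals, so no test between stages was possible and each difference below is a difference between libraries. The 4 libraries held 2249 to 2585 nuclei and 19277512 to 31325079 unique molecular identifiers (UMIs), 9724 nuclei in all, which the authors placed in 9 classes and 35 subtypes.

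Neuronal pentraxins are secreted or membrane-anchored proteins that gather AMPA-type glutamate receptors at synapses, and in the visual system they take part in the refinement of retinal inputs. Nptx1 and Nptx2 are secreted, while Nptxr is held in the membrane. C1q-like proteins are secreted by neurons and some glia and act as synaptic organisers, with Adgrb3 as a receptor. Adgrb1 can also bind phosphatidylserine on dying cells, and the Adgrb receptors act on Rac signalling and the actin cytoskeleton.

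Levels are UMIs of a gene per 1000000 UMIs summed over the nuclei of a class or subtype in a library (CPM). Ranges in brackets are 95% intervals that cover counting error only. Differences are log2 ratios taken with 5 CPM added on either side, so that for genes of low level they come out smaller than the true ratio. A difference was called when it reached 2-fold with at least 20 CPM in the higher group. Median depth was higher at the later stages, from 6828 UMIs per nucleus at E19 to 11745 at P21. The median percent of mitochondrial UMIs was 0.635, 0.795, 0.337 and 0.232 in stage order. Excitatory neurons carried the 2 excitatory markers at 221 CPM and the 3 inhibitory markers at 43.03 CPM, and inhibitory neurons carried them at 24.6 and 789 CPM. The class named epithelial held 26.5 CPM of its own 3 markers and 705 CPM of the vascular leptomeningeal ones, and the vascular leptomeningeal class held 2202 CPM of the astrocyte markers. Microglia held 91.7 CPM of the excitatory, 161 CPM of the inhibitory and 506 CPM of the myelinating oligodendrocyte markers. Nuclei of a class can thus carry markers of another type, and their source was not tested. Between libraries, 9 barcode sequences recurred, in 18 nuclei.

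The pentraxin genes lie on 3 chromosomes (GRCm38, GENCODE M21). Nptx1 (ENSMUSG00000025582) spans chromosome 11, 119538719 to 119547753, minus strand. Nptx2 (ENSMUSG00000059991) spans chromosome 5, 144545902 to 144557478, plus strand. Nptxr (ENSMUSG00000022421) spans chromosome 15, 79786351 to 79804766, minus strand, and overlaps Npcd on the same strand. The C1q-like genes C1ql1 (ENSMUSG00000045532), C1ql2 (ENSMUSG00000036907) and C1ql3 (ENSMUSG00000049630) lie on chromosome 11, 102939264 to 102946688, minus, chromosome 1, 120340582 to 120343174, plus, and chromosome 2, 13003457 to 13011806, minus. Adgrb1 (ENSMUSG00000034730) lies on chromosome 15, 74516195 to 74589465, plus, Adgrb2 (ENSMUSG00000028782) on chromosome 4, 129984870 to 130022633, plus, and Adgrb3 (ENSMUSG00000033569) on chromosome 1, 25067476 to 25829707, minus. Adgrb3 spans 762 kb and covers 21 further annotated genes on its own strand and 2 on the other, so that UMIs may be shared among them. C1ql1 and C1ql3 overlap 1 and 2 genes on the opposite strand, and Adgrb1 overlaps Gm26117. Introns were counted, so long genes collect more UMIs. Per kilobase of gene span, the level in excitatory neurons over the 4 libraries ran from 0.329 CPM per kb for C1ql3 to 4.53 CPM per kb for Adgrb3.

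Nptxr, the membrane-anchored pentraxin, had the largest log2 ratio between E19 and P21 on this scale, on which the lower C1q-like genes are held back by the added 5 CPM. The excitatory level at E19 was 62.2 CPM (57.7 to 66.9) and at P4 59.6 CPM (55.8 to 63.7). It was 27.7 CPM (24.9 to 30.7) in the P8 library and 13.6 CPM (11.7 to 15.6) in the P21 library. The inhibitory levels in the same order were 55.4, 52.8, 25.5 and 13.4 CPM. The E19 and P4 libraries were high and alike in both classes, P8 was lower, and P21 was the lowest, with intervals that did not overlap those of P8. The log2 ratio of P21 over E19 was -1.86 (-2.03 to -1.68) in excitatory and -1.72 (-1.94 to -1.497) in inhibitory neurons.

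**Figure D1:**
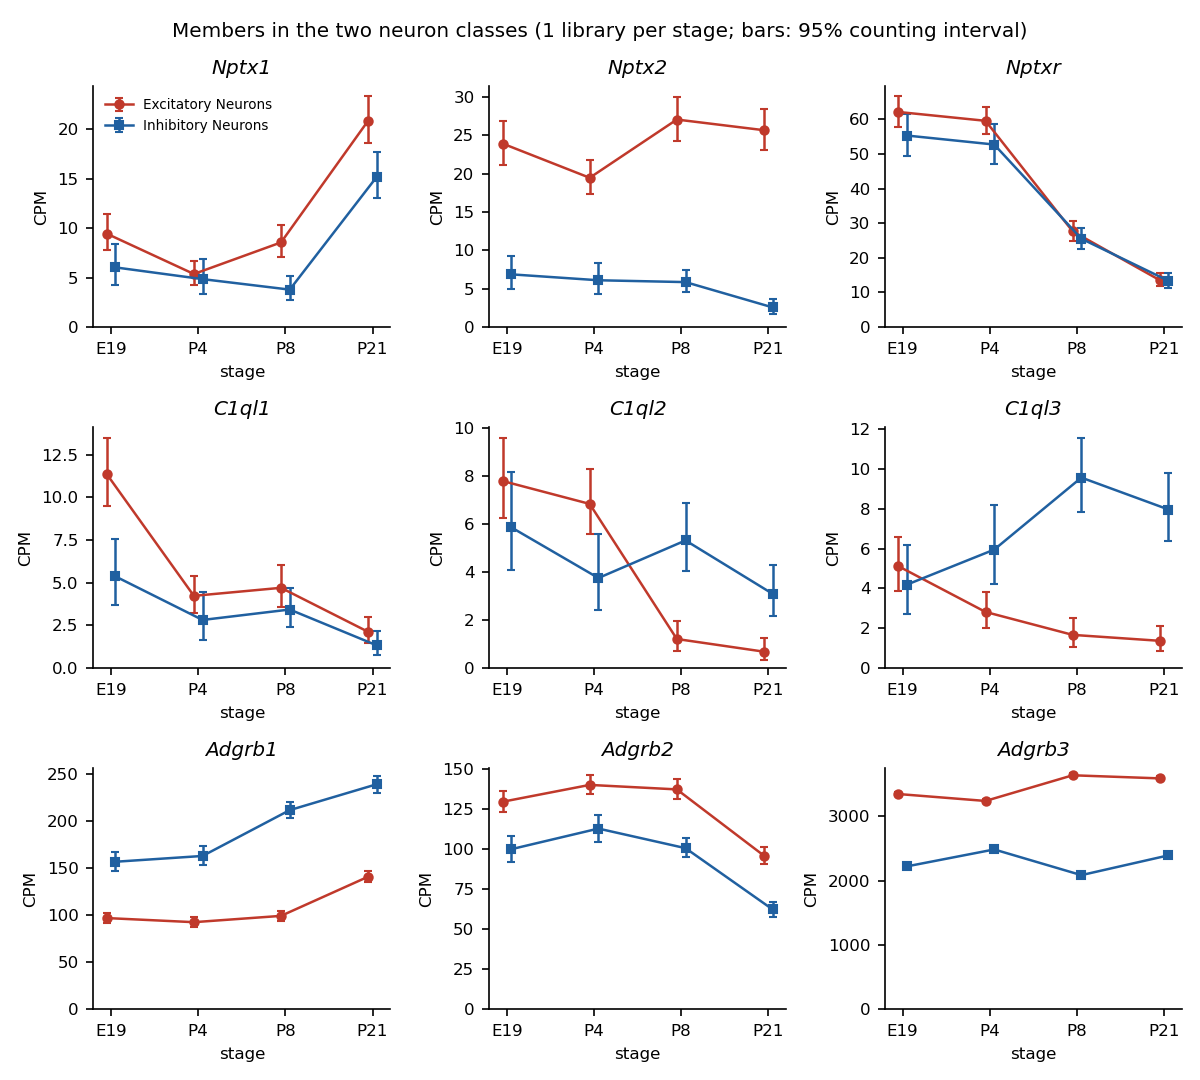
CPM of each of the 9 genes (y axis, from 0) at the 4 stages (x axis) in excitatory neurons (red circles) and inhibitory neurons (blue squares), 1 library per stage, with 95% counting intervals as bars. Nptxr goes from 62.2 to 13.6 CPM in excitatory neurons, Nptx2 is separated by class, and Adgrb1 is higher in inhibitory neurons in each library.

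Nptxr was the single member called lower at P21 than at E19, in each of the 2 neuron classes, against a background of 10.7% of 7650 genes in excitatory and 11.3% of 7807 genes in inhibitory neurons. No member was called higher, where the background was 5.35% and 5.83% of genes. Of the 9 members, 6 reached 20 CPM in the excitatory comparison and 4 in the inhibitory one. The median log2 ratio over the 9 members, without the level filter, was -0.42 in excitatory and -0.43 in inhibitory neurons. Over all genes at 20 CPM or more it was -0.06 and -0.04, so the sets are not alike. The 6 excitatory members at 20 CPM had ratios of 0.84 (Nptx1), 0.08 (Nptx2), -1.86 (Nptxr), 0.52 (Adgrb1), -0.42 (Adgrb2) and 0.10 (Adgrb3). The 4 inhibitory ones had -1.72 (Nptxr), 0.59 (Adgrb1), -0.64 (Adgrb2) and 0.11 (Adgrb3). Between successive stages no member was called in either class, against 1.17%, 1.19% and 5.35% of genes in excitatory and 1.02%, 0.519% and 5.9% in inhibitory neurons.

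The lower Nptxr level was also found inside the subtypes, which the authors numbered EN1 to EN13 (excitatory) and IN1 to IN12 (inhibitory). Among the 23 neuron subtypes with at least 20 nuclei at both ages, Nptxr was lower at P21 in 23 of 23, and the intervals were apart in 18. Across all genes tested, 10.8% were lower at P21 in each of the 23. The smallest difference was in IN11, where Nptxr stood at 40.9, 33.9, 31.9 and 24.2 CPM over the 4 stages. The largest was in EN12, with 61.9, 32.5, 13.1 and 7.35 CPM. Nptxr had the highest mean in EN7 (71.0 CPM), a subtype with 33 nuclei at E19, 191 at P4 and 1 in each later library, so this mean rests on the 2 stages with the highest class levels.

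Nptxr was also lower at P21 in 3 classes outside neurons. In astrocytes the level was 28.1, 45.6, 25.0 and 8.61 CPM, and P21 over E19 was called lower (log2 ratio -1.28), against a background of 18.2% of genes. In the oligodendrocyte lineage it was 57.2 CPM at P4 and 4.68 at P21 (log2 ratio -2.69, background 26.9%), while the subtypes of the lineage changed in number. Within oligodendrocyte precursors alone it was 31.2 CPM at P8 and 13.4 at P21. That log2 ratio of -0.98 (-2.18 to 0.21) was not called, and its interval covered 0. In vascular leptomeningeal cells it was 38.6 CPM at P4 and 10.9 at P21 (log2 ratio -1.45, -2.29 to -0.61, background 11.9%). That class also held 2202 CPM of the astrocyte markers. Over the 4 libraries, 10.0% of microglia (median depth 3219 UMIs) held a UMI of Nptxr, beside 38.0% of excitatory neurons (median depth 11598 UMIs). Microglia stood at 70.8, 41.3, 13.2 and 9.003 CPM on 4, 3, 1 and 1 UMIs, too few to order the later stages. The part of RNA from neurons in these glial levels was not tested. Npcd, which overlaps Nptxr, stood at 9.97, 4.70, 7.81 and 8.90 CPM in excitatory neurons, without a step between P4 and P8 like that of Nptxr. After each nucleus was thinned to 2300 UMIs, the share of excitatory nuclei with an Nptxr UMI was 13.5%, 13.3%, 6.69% and 3.96% in stage order (unthinned, 39.3%, 48.3%, 32.6% and 24.2%).

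**Figure D2:**
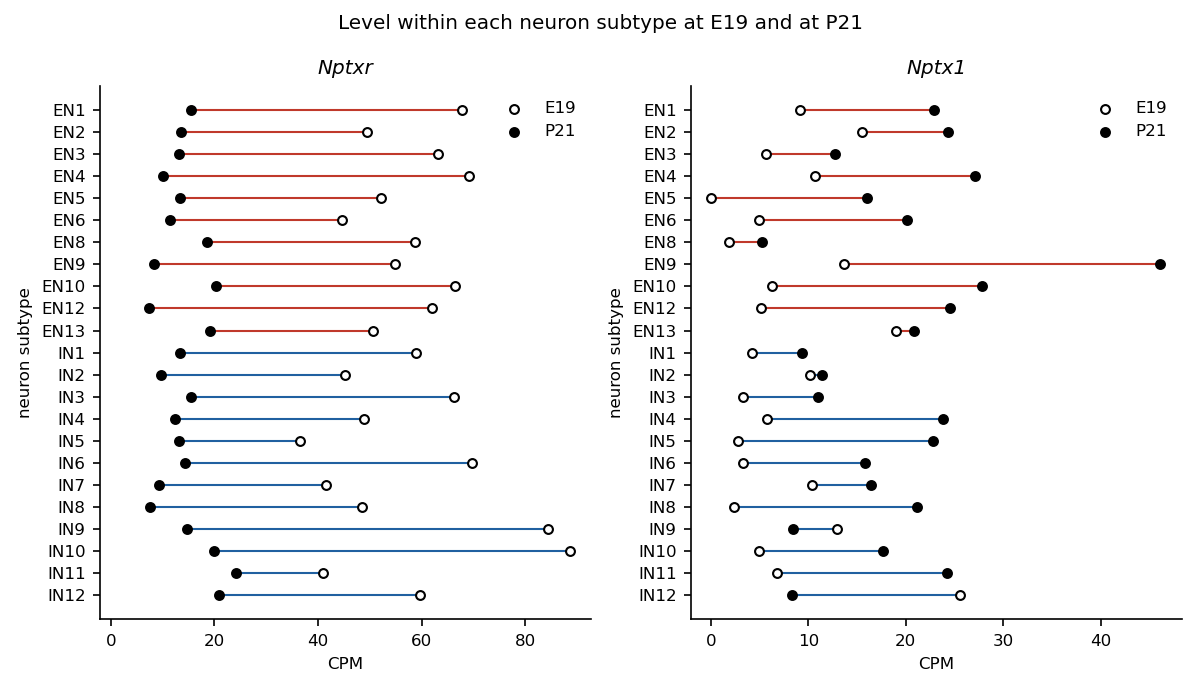
Nptxr (left) and Nptx1 (right) in CPM (x axis) within each neuron subtype with at least 20 nuclei at both ages (y axis), E19 as open and P21 as filled circles, joined in red for excitatory and blue for inhibitory subtypes. Nptxr is lower at P21 in 23 of 23 subtypes and Nptx1 is higher in 21 of 23.

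Nptx1, a secreted pentraxin, was at its highest in the P21 library. Its excitatory levels were 9.45, 5.37, 8.57 and 20.9 CPM, and its inhibitory levels 6.04, 4.85, 3.79 and 15.2 CPM. The P21 intervals (18.6 to 23.4 and 13.0 to 17.7 CPM) lay above those of the 3 earlier libraries in both classes. The log2 ratio of P21 over E19 was 0.84 (0.62 to 1.06) and 0.87 (0.57 to 1.18), short of the 2-fold mark. With 1 CPM added in place of 5, the ratios were 1.07 and 1.204. The excitatory difference was then called, while inhibitory neurons stayed below 20 CPM.

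Within subtypes, Nptx1 was higher at P21 than at E19 in 21 of 23, with intervals apart in 1. Across all genes tested, 6.68% were higher in each of the 23, a stricter pattern than 21 of 23. The share of genes at 21 of 23 was not taken, nor was one for the subtype counts of the Adgrb receptors below. The subtypes in which it was lower, IN12 and IN9, rest on 2 to 4 UMIs per library. Nptx1 had its highest mean in EN9, with 13.7, 0, 29.1 and 46.0 CPM over the stages, where the P4 value is 0 UMIs in 31 nuclei. In the P21 library 27 of 45 EN9 nuclei held a UMI. No 2 neighbours in the order of the 25 subtypes had ranges over libraries that stood apart.

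Nptx2, the activity-regulated secreted pentraxin, was higher in excitatory neurons. It stood at 23.9 (21.2 to 26.9), 19.5 (17.3 to 21.8), 27.1 (24.3 to 30.0) and 25.7 CPM (23.1 to 28.4) in excitatory neurons and at 6.88, 6.11, 5.87 and 2.57 CPM in inhibitory neurons. The classes did not overlap in any library. Inhibitory over excitatory, the log2 ratio was -1.28, -1.14, -1.56 and -2.02, past 2-fold in 4 of 4 libraries, a pattern held by 0.512% of genes. In inhibitory neurons the excitatory markers themselves summed to 46.3, 40.7, 19.9 and 8.49 CPM over the stages, and their part in the lower Nptx2 level at P21 was not tested.

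Among subtypes, Nptx2 was highest in EN9 (57.9 ± 16 CPM, SD over 4 libraries), EN5 (44.8 ± 12) and EN4 (41.2 ± 9.0). In EN9 it stood at 68.6, 73.4, 39.1 and 50.8 CPM. Ranges of these 3 subtypes overlapped each other, so their order is not resolved. EN4 (30.2 to 51.7 CPM) also overlapped the next subtype, EN1 (25.9 to 31.5 CPM), so the set of 3 is not resolved either. In EN8 it stood at 7.57, 3.69, 2.31 and 2.24 CPM, at least 2-fold under the other excitatory neurons in 4 of 4 libraries (0.955% of genes were called lower there). EN7 was also at least 2-fold lower in the 2 libraries with 20 or more of its nuclei, E19 and P4 (background 2.35%). In EN6, Nptx2 levels were 24.8, 9.04, 32.1 and 45.0 CPM, although the first 2 values rest on 5 and 3 UMIs. At P21, 1 nucleus held 25 of the 375 Nptx2 UMIs of excitatory neurons.

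C1ql1, the ligand known from climbing fibres of the cerebellum, was highest in oligodendrocyte precursors (OPCs), glia that divide and give rise to myelinating cells. The OPC levels were 136 (89.1 to 200), 143 (91.4 to 212), 115 (87.6 to 149) and 167 CPM (124 to 220) in stage order, and the intervals overlapped across the stages. At P21, 54.7% of the 64 OPC nuclei held a UMI. Committed oligodendrocytes at P21 stood at 30.9 CPM (15 UMIs), and 187 myelinating oligodendrocytes held 0 UMIs. With 3 counts as the limit for a count of 0, in this library and subtype, the floor was 1.91 CPM and C1ql1 was at least 87.2-fold higher in OPCs.

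**Figure D3:**
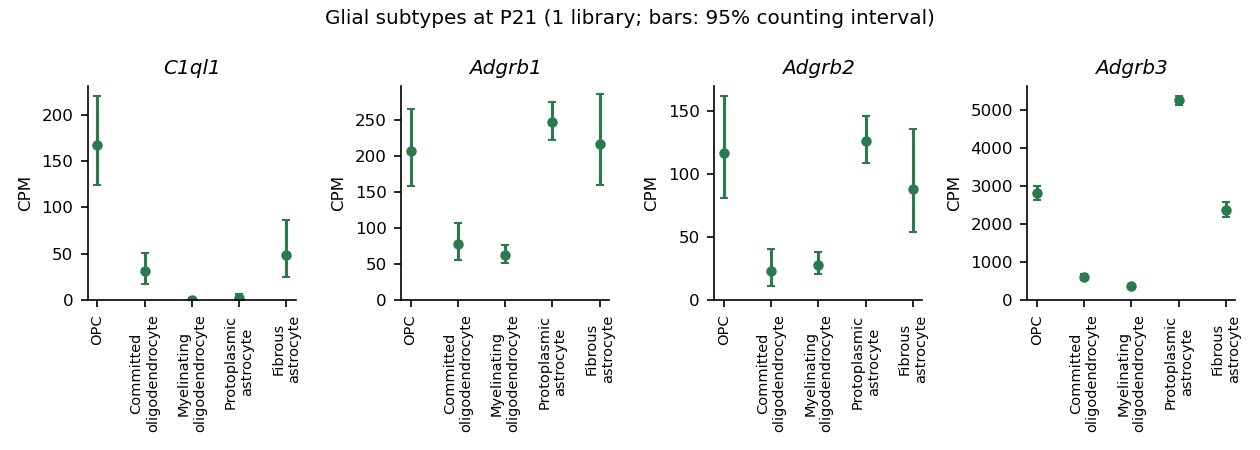
CPM (y axes, from 0) of C1ql1, Adgrb1, Adgrb2 and Adgrb3 in 5 glial subtypes (x axes) of the P21 library, with 95% counting intervals as bars. The 4 genes are lower in committed and myelinating oligodendrocytes than in OPCs, C1ql1 reaching 0 UMIs, and Adgrb3 is highest in protoplasmic astrocytes.

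The OPC subtype carried its own markers at 1409 CPM, and committed oligodendrocytes carried the OPC markers at 97.3 CPM. Within astrocytes at P21, C1ql1 was 48.5 CPM in the fibrous (11 UMIs, 1 per nucleus) and 2.14 CPM in the protoplasmic subtype (3 UMIs), a called difference (background 16.3% of genes higher). Dividing cells held 41.1 CPM of C1ql1, beside 841 CPM of the OPC markers and 871 CPM of the astrocyte markers. In neurons C1ql1 was low. The highest neuron subtype was IN6, with 13.3, 14.2, 14.8 and 17.4 CPM, on 4, 4, 12 and 11 UMIs, followed by EN8 with 18.9, 8.30, 11.5 and 5.97 CPM.

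C1ql2 and C1ql3 shared one inhibitory subtype, IN3. In IN3, C1ql2 levels were 53.0 (30.3 to 86.0), 25.2 (10.9 to 49.7), 25.5 (18.6 to 34.1) and 15.6 CPM (10.6 to 22.1) in stage order. C1ql3 stood there at 59.6, 66.3, 35.1 and 33.6 CPM. In the other inhibitory neurons C1ql2 was 3.36, 2.64, 1.503 and 0.430 CPM and C1ql3 was 1.24, 2.80, 4.72 and 2.47 CPM. Both genes were at least 2-fold higher in IN3 in 4 of 4 libraries, as were 0.919% of genes. They passed the 20 CPM filter through IN3 alone, which favours such a call. IN3 was also picked with its values in view, so the share does not measure how rare the pattern is. IN3 made up 7.50%, 8.27%, 19.8% and 17.0% of inhibitory nuclei and gave 45.7%, 33.3%, 76.3% and 88.6% of their C1ql2 UMIs. Clusters were drawn by the authors on these nuclei, so that a gene that separates a subtype may have helped to define it.

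**Figure D4:**
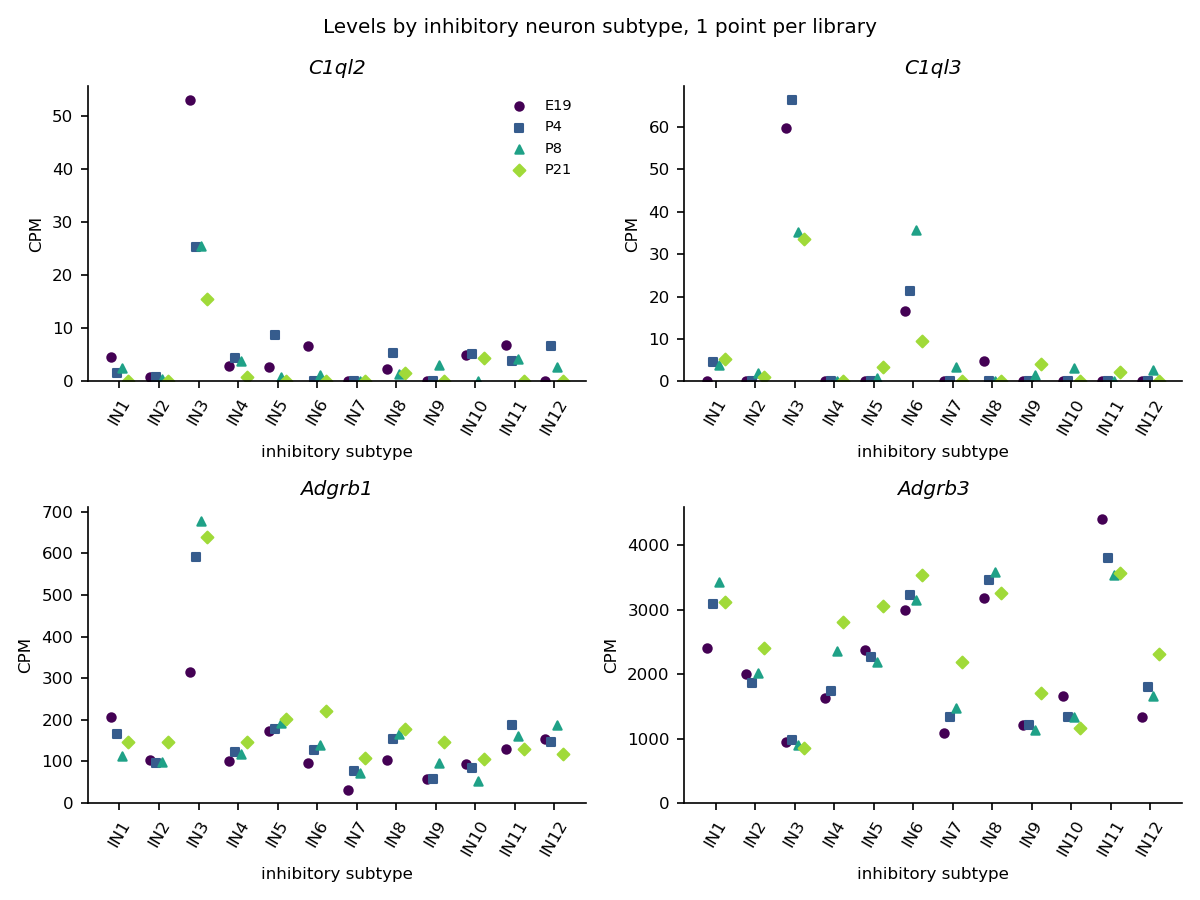
CPM (y axes, from 0) of C1ql2, C1ql3, Adgrb1 and Adgrb3 in the 12 inhibitory subtypes (x axes), 1 symbol per library, for subtypes with at least 20 nuclei. IN3 is the highest for C1ql2 and Adgrb1 in each library and the lowest for Adgrb3, and C1ql3 also appears in IN6.

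Of 469 IN3 nuclei, 83 held a C1ql2 UMI, 121 a C1ql3 UMI, 21 both and 183 at least 1 of them. At a median depth of 7871 UMIs a nucleus without a UMI cannot be counted as negative. C1ql3 had a second site in IN6, with 16.6, 21.3, 35.7 and 9.52 CPM, where C1ql2 held 3 nuclei of 227. IN4 held 0 UMIs of C1ql3 in 353 nuclei (upper 95% limit 1.35 CPM), and IN7 held 0 UMIs of C1ql2 in 215 nuclei (upper 95% limit 1.68 CPM).

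C1ql3 was higher at P21 than at E19 in the whole inhibitory class, while a change in its main subtype, IN3, was not resolved. In inhibitory neurons C1ql3 stood at 4.19, 5.95, 9.57 and 7.96 CPM, and the log2 ratio of P21 over E19 was 0.50 (0.18 to 0.81). Within IN3 it was lower at P21 than at E19, on 67 and 18 UMIs, but the counting intervals of these 2 levels overlapped. With each subtype weighted alike the class ratio was -0.24. The larger IN3 share moved with the higher class level. Without IN3 the class stood at 1.24, 2.80, 4.72 and 2.47 CPM.

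In excitatory neurons the 3 C1q-like genes were low and at their highest at E19, mostly in EN1. C1ql2 stood at 7.80, 6.85, 1.21 and 0.685 CPM, C1ql1 at 11.4, 4.23, 4.70 and 2.12 CPM and C1ql3 at 5.12, 2.82, 1.67 and 1.37 CPM. At E19, EN1 made up 38.4% of excitatory nuclei and gave 78.9% of their C1ql2 UMIs, 68.7% of their C1ql1 UMIs and 88.1% of their C1ql3 UMIs. Within EN1, C1ql2 levels were 14.0 (11.0 to 17.7), 14.3 (11.3 to 17.8), 0.872 (0.106 to 3.15) and 1.47 CPM (0.476 to 3.42). C1ql2 was thus high in the 2 earlier libraries of EN1 and low in the 2 later ones, while C1ql1 (17.8, 4.57, 2.18 and 1.17 CPM) and C1ql3 (10.3, 2.01, 3.49 and 2.64 CPM) were already lower at P4. EN1 was singled out after its values were seen, and 1 nucleus held 10 of the 52 C1ql3 UMIs of EN1 at E19.

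Adgrb1, the phosphatidylserine-binding receptor, was higher in inhibitory than in excitatory neurons. Inhibitory levels were 157, 163, 211 and 239 CPM and excitatory levels 96.7, 92.3, 99.0 and 141 CPM. The log2 ratio was 0.67, 0.78, 1.06 and 0.74, with intervals above 0 in 4 of 4 libraries. Across all genes tested, 32.6% were higher in inhibitory neurons in each library, so the direction by itself is common. IN3 stood at 314, 590, 678 and 638 CPM and gave 10.2%, 17.998%, 51.1% and 47.1% of the inhibitory UMIs of Adgrb1. Without IN3, a comparison added after the data were seen, inhibitory neurons stood at 148, 140, 123 and 153 CPM, and the log2 ratio over excitatory neurons was 0.59, 0.58, 0.30 and 0.12. Leaving out IN3 thus moved the ratio little at E19 and more at P8 and P21. In the same comparison the inhibitory ratio of P21 over E19 went from 0.59 to 0.05.

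In IN3, Adgrb1 was at least 2-fold above the other inhibitory neurons in 4 of 4 libraries, and its level at E19 lay under those at the later stages. In IN7 it stood at 31.2, 75.7, 71.7 and 109 CPM, at least 2-fold under the other inhibitory neurons in 4 of 4 libraries (background 1.73%). Adgrb1 was higher at P21 than at E19 in 21 of 23 neuron subtypes, with intervals apart in 11. It was lower in IN12 and in IN1, where the E19 level of 207 CPM (189 to 227) and the P21 level of 146 CPM (127 to 167) had intervals apart. Of the inhibitory nuclei, IN1 was 29.8% in the E19 and 9.46% in the P21 library. The median difference over subtypes was 0.51 on the log2 scale. IN3 was apart from the next subtype, IN5 (186 ± 13 CPM), and below it the order from IN5 down to EN6 had overlapping ranges between neighbours.

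Adgrb2, another receptor of the family, was present in each neuron subtype. It stood at 130, 140, 137 and 95.9 CPM in excitatory and at 100.0, 113, 101 and 62.3 CPM in inhibitory neurons, lowest at P21 in both. Its highest subtype mean (EN13, 158 ± 50 CPM) was 1.46 times that of its median subtype, the smallest such ratio among the 9 members, and its lowest was in IN10 (65.9 ± 24 CPM). The P21 level was under the E19 level in 18 of 23 subtypes, with intervals apart in 6. No neighbours in its order stood apart.

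Adgrb3, the receptor of C1q-like proteins, was detected in 97.5% of all nuclei, without thinning. The part of RNA from other cells in that share was not tested. Adgrb3 stood at 3350, 3242, 3642 and 3593 CPM in excitatory and at 2223, 2486, 2086 and 2395 CPM in inhibitory neurons. Excitatory neurons were higher in each library, with a log2 ratio of inhibitory over excitatory of -0.59, -0.38, -0.80 and -0.58. At the class level, P21 differed from E19 by 0.10 in excitatory and 0.11 in inhibitory neurons on the log2 scale, small beside the differences among subtypes. Within subtypes, Adgrb3 was higher at P21 in 15 of 23 and lower in 8, with intervals apart in 13 and 5. The log2 ratio ran from -0.76 in EN9 to 1.00 in IN7, so the small class ratio does not mean a stable level in each subtype.

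Of the members, 6 were higher in excitatory neurons in each library (Nptx1, Nptx2, Nptxr, C1ql1, Adgrb2 and Adgrb3), against 16.5% of all genes, and 1 (Adgrb1) was higher in inhibitory neurons. For Nptxr the counting interval of the ratio covered 0 in 4 of 4 libraries, for C1ql1 in 3 (P4, P8 and P21) and for Nptx1 in 1 (P4). C1ql1 also lay below the level filter that the genes behind the 16.5% had passed. When each subtype was weighted alike, the counts were 3 and 3: Nptx2, Adgrb2 and Adgrb3 remained on the excitatory side, and C1ql2 and C1ql3 joined Adgrb1 on the inhibitory side.

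EN9 (8273, 6291, 6432 and 4899 CPM), EN5 (6912, 5573, 5917 and 5032) and EN4 (4725, 4935, 4697 and 4600) held the highest Adgrb3 levels. These are also the 3 highest subtypes by mean for Nptx2, although there EN4 overlapped the next subtype, EN1. Across the 13 excitatory subtypes the means of the 2 genes had a Pearson r of 0.60 and a Spearman rho of 0.57, given as a description, since the subtypes share libraries. EN6 departed from it, with Adgrb3 at 2364, 1479, 1480 and 1540 CPM beside its Nptx2 levels above. For Adgrb3 the ranges over libraries of EN5 and EN4 did not overlap, while those of EN9 and EN5 did.

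**Figure D5:**
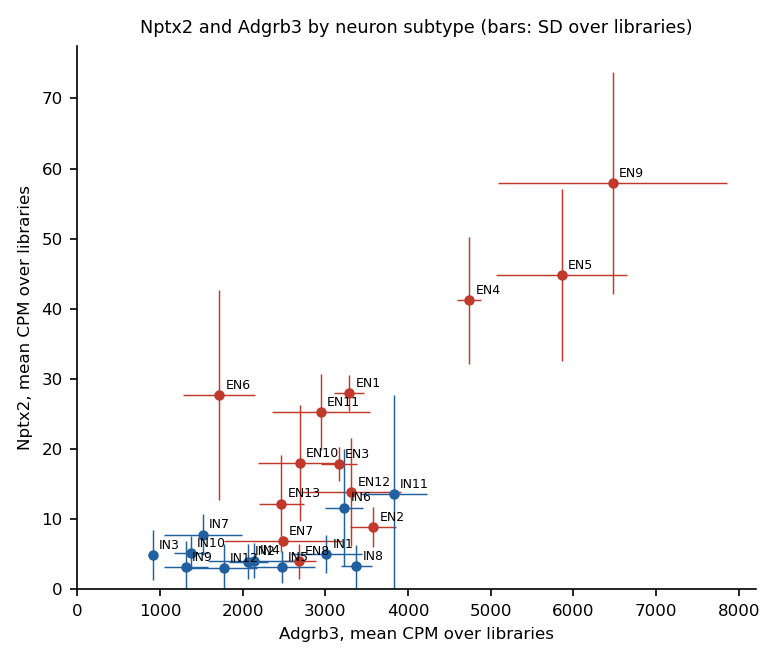
Nptx2 (y axis) against Adgrb3 (x axis), mean CPM over libraries, 1 point per neuron subtype with SD over libraries as bars (cut at 0), excitatory in red and inhibitory in blue. EN9, EN5 and EN4 lie apart at the upper right, and EN6 has Nptx2 at 27.7 CPM with a low Adgrb3 level.

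At the other end, IN3 was the lowest of the 25 subtypes for Adgrb3, at 940 (834 to 1056), 972 (866 to 1087), 898 (854 to 943) and 847 CPM (807 to 888). It was at least 2-fold under the other inhibitory neurons in 4 of 4 libraries, as were 1.68% of genes. IN3 was thus the highest of the neuron subtypes for C1ql2 and Adgrb1 and the lowest for Adgrb3 in each library. For C1ql3 it was the highest in 3 of 4 libraries, and IN6 stood level with it at P8. Neighbouring IN9 (1314 CPM on average) did not overlap it.

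The RefSeq table of sequences before gene starts (GRCm38.p6) matched 4 of the 9 members. The 250 bases before the starts of C1ql2 (chr1:120340332-120340581, plus strand) and Adgrb3 (chr1:25829708-25829957, minus strand) are shown because these genes stand at opposite ends in IN3. They read 5′ to 3′ with CG dinucleotides in capitals, 20 for C1ql2 and 14 for Adgrb3, against a median of 6 over 32851 windows of this length.
C1ql2: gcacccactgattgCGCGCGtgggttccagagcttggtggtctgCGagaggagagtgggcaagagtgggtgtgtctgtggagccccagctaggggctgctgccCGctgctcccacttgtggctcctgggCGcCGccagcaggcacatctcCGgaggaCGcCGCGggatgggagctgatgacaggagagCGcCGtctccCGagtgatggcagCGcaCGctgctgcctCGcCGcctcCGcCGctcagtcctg
Adgrb3: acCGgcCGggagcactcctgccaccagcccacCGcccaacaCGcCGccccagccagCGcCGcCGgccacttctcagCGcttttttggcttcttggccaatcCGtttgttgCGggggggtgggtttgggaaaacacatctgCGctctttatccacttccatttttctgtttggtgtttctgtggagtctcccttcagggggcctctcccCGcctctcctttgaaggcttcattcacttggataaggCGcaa
At least as many CG dinucleotides were held by 17.9% and 29.4% of all windows. The 5 motifs below were searched on both strands without regard to overlap: TATAAA (in 12.4% of all windows), GGGCGG (32.7%), CCAAT (33.8%), TGACGTCA (1.55%) and CAGCTG (13.0%). The C1ql2 window held none of them. The Adgrb3 window held GGGCGG on the reverse strand with its first base at -219 and -207 from the start, and CCAAT at -155. These matches describe letters only.

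In glia, the Adgrb receptors were, like C1ql1, lower in oligodendrocytes than in OPCs of the P21 library. At P21, Adgrb1 stood at 207 CPM in OPCs, 78.2 in committed and 62.5 in myelinating oligodendrocytes. Adgrb2 stood at 117, 22.6 and 28.1 CPM, and Adgrb3 at 2805, 599 and 362 CPM. With C1ql1, these 4 members were called lower than in OPCs in both committed and myelinating oligodendrocytes. The background was 24.5% and 24.9% of genes, so that such a difference is frequent between these subtypes. Committed and myelinating oligodendrocytes were not compared with each other. Across the whole lineage, the level of Adgrb3 went from 2535 CPM at P4 to 722 CPM at P21, while the lineage gained myelinating oligodendrocytes, of which the P21 library held 187 and the P8 library 1. Within OPCs, Adgrb3 stood at 3908, 2907, 3474 and 2805 CPM. In protoplasmic astrocytes at P21 it stood at 5259 CPM, and in fibrous astrocytes at 2368 CPM, called lower (background 7.5%).

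A further 60 genes of the same pathways were listed as partners, and 60 were in the matrix. From E19 to P21, 41 passed 20 CPM in excitatory neurons, of which 5 were called higher and 4 lower. In inhibitory neurons 42 passed, 4 higher and 6 lower. The shares of all genes called in these comparisons are those given above. The lists were drawn up with earlier results of these data known.

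Among 13 AMPA receptor partners of the pentraxins, 2 were called higher and 2 lower in excitatory neurons, and 1 higher and 2 lower in inhibitory neurons. The auxiliary subunit Cacng4 stood at 223, 166, 134 and 28.5 CPM in excitatory and 214, 169, 152 and 32.9 CPM in inhibitory neurons. Cnih2, another auxiliary subunit, stood at 58.4, 39.3, 19.9 and 9.31 CPM in excitatory and 63.4, 40.9, 22.7 and 7.17 CPM in inhibitory neurons. These 2 were named as the largest falls of the list from E19 to P21. Their low P21 level, like that of Nptxr, thus follows from the choice. Gria3, a receptor subunit, went from 194 to 462 CPM in excitatory neurons, and Cacng7 from 52.8 to 116 CPM. The median log2 ratio of the list was 0.21 and 0.17.

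The 7 C1q-domain relatives and delta receptors held 1 called gene, Cbln2, a cerebellin ligand, lower in both classes (63.6 to 20.1 and 27.8 to 5.75 CPM). Of the 8 neurexin and kainate receptor genes, Nrxn2 was lower in both classes (500 to 220 and 516 to 251 CPM) and Grik1 was lower in inhibitory neurons (1096 to 527 CPM). Among 16 signalling partners of the Adgrb receptors, Elmo1, which links Adgrb1 to Rac, stood at 220, 268, 352 and 680 CPM in excitatory and 197, 243, 330 and 543 CPM in inhibitory neurons. Baiap2 was also higher at P21, at 72.1 against 19.2 CPM and 53.2 against 11.4 CPM. Rtn4r, the Nogo receptor, was lower in inhibitory neurons (22.5 to 2.65 CPM). None of the 7 short pentraxins and complement C1q genes reached 20 CPM in neurons at E19 or P21. Among 9 activity-regulated genes Egr1 was called, from 0.520 to 22.0 CPM and from 0.335 to 27.3 CPM.

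Genes with patterns most like a member were ranked by Pearson r across 96 subtype and stage profiles of neurons, over 10186 genes with at least 20 CPM in 3 profiles. For Nptxr they were Tubb5 (0.88), Sdc3 (0.88) and Ly6h (0.87). For Nptx2 they were Sox6 (0.77), Nek7 (0.70) and Cacna2d1 (0.69), and for Nptx1, Rgl1 (0.63), Atp1b3 (0.63) and Gm31508 (0.62). For C1ql2 they were Cbln4 (0.57), Trpm3 (0.56) and Tmem2 (0.55), and for C1ql3, Nos1ap (0.59), Tspan5 (0.58) and Pcbp3 (0.52). Pcbp3 (0.66) also led for Adgrb1, before Unc13c (0.61) and Pik3cb (0.61). For Adgrb2 they were Pdzd4 (0.74), Pdlim7 (0.70) and Ppfibp1 (0.70), and for Adgrb3 they included Tacr1 (0.66) and Slc2a13 (0.64). C1ql1 reached 20 CPM in 1 profile and was not ranked. Profiles of 1 stage share a library and its depth.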

How the data were processed

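The authors deposited raw UMI counts per gene and nucleus, with a table of class, subtype, stage, UMI total and percent of mitochondrial UMIs for each nucleus. Cell Ranger 3.0.2 and mm10 are named in the submitters' processing notes, and a reference that includes introns is stated per the labels. Filters on nuclei, doublet removal, clustering and the naming of classes are not given in the sources used here, and the deposited names were used unchanged. The percent of mitochondrial UMIs is used as deposited.

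Counts were summed per library and class or subtype and scaled to CPM. Intervals are exact Poisson for levels and exact binomial (Clopper-Pearson) for shares of nuclei, both at 95% and for counting error only. UMIs mark molecules, but nuclei of a library are not replicates. With 1 library per stage, no p-value is given. Log2 ratios used 5 CPM added, with delta-method intervals. Subtypes needed 20 nuclei in a library, and subtype means weighted libraries alike. Genes named besides the 9 members were the 2 largest differences each way per partner list and class at 20 CPM or more, and the 3 most correlated genes per member, of which 1 is not reported here. The members and lists were chosen with earlier results of these data known. The subtypes IN3 and EN1 were picked out with their values in view. Whether counting used strand is not given in the sources used here. Alternatives covered the added CPM, the level filter, weighting, scaling, thinning to 2300 UMIs and nuclei or subtypes left out. The calculation was tested on simulated data. Python 3.11.15, numpy 2.4.6, scipy 1.17.1 and pandas 2.3.3 were used.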

Additional observations from a re-analysis of the deposited data

Results flagged for a closer look

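For C1ql3 and Adgrb3, excitatory and inhibitory neurons moved in opposite directions between the same libraries. With 1 library per stage, the difference between the classes was not tested in any of these cases.

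C1ql3 from E19 to P21 had a log2 ratio of -0.67 in excitatory and 0.50 in inhibitory neurons, and from P4 to P8 of -0.23 and 0.41. With each subtype weighted alike, the ratios were -0.16 and -0.24 for the first pair and -0.05 and -0.04 for the second, so the opposite signs were not kept.

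Adgrb3 from E19 to P4 had a log2 ratio of -0.0471 in excitatory and 0.16 in inhibitory neurons. From P4 to P8 the ratios were 0.17 and -0.25, and from P8 to P21 they were -0.0192 and 0.20. With each subtype weighted alike, they were -0.11 and 0.05, 0.04 and 0.03, and 0.02 and 0.16, so that the opposite signs remained in the first pair of stages alone.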

How the results depend on the processing

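The call of Nptxr as lower at P21 than at E19 held under each alternative run for it, with log2 ratios from -1.29 to -2.12 in excitatory and from -1.18 to -1.97 in inhibitory neurons. The count of members called higher in excitatory neurons went from 0 to 1 with 1 CPM added, with each subtype weighted alike, and without nuclei carrying both transmitter types. That member was Nptx1, at 1.07, 1.04 and 1.06. The count of members higher in inhibitory neurons in 4 of 4 libraries went from 1 to 2 with each nucleus weighted alike or thinned, and to 3 with each subtype weighted alike, where the excitatory count went from 6 to 3. Counts over all genes depended on the level filter and the added CPM by construction. In excitatory neurons 409 higher and 815 lower genes became 145 and 229 at 100 CPM or more, and 211 and 414 with 20 CPM added. In inhibitory neurons 455 and 886 became 179 and 240, and 249 and 462. Partner genes went from 5 higher and 4 lower to 3 and 2 at 100 CPM or more in excitatory neurons. In inhibitory neurons they went from 4 and 6 to 2 and 3, and the lower count to 3 with 20 CPM added. Median-of-ratios scaling shifted all genes by 0.112 in excitatory neurons on the log2 scale. The lists of like genes were unstable, with 0 to 2 of 3 genes shared under rank correlation or larger subtypes. No paired analysis was possible because each stage was 1 library.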
